A study of Oryza sativa with 18 samples.

Results

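Catalase A (LOC_Os02g02400), catalase isozyme 2 (LOC_Os03g03910), 1-Cys peroxiredoxin (LOC_Os07g44440) and isocitrate lyase (LOC_Os07g34520) are 4 of the 3149 rice genes that the authors called as different between csa mutant and wild type seed RNA at 1 or more times of imbibition. They were picked by locus with those calls known, so their differences between the genotypes are described here and not tested. The gene numbers beside the entries place catalase A on chromosome 2, catalase isozyme 2 on chromosome 3 and the other 2 genes on chromosome 7 in RefSeq (assembly ASM3414082v1), where catalase A carries the synonym CAT-A and isocitrate lyase the synonym ICL.

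Catalase splits hydrogen peroxide into water and oxygen inside peroxisomes. Seeds that live on stored oil burn fatty acids by beta-oxidation in specialised peroxisomes called glyoxysomes, a route that releases hydrogen peroxide, and the glyoxylate cycle there turns the acetyl units into precursors of sugar. Isocitrate lyase, the enzyme that cuts isocitrate into glyoxylate and succinate, opens that cycle. A 1-Cys peroxiredoxin is a thiol peroxidase with a single catalytic cysteine, and in cereals such as barley its transcript is known from the embryo and aleurone of maturing and dormant grain.

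The groups were csa mutant and wild type line 9522 (as named in the sample titles) at 3 h, 6 h and 12 h of imbibition, with 3 samples in each of the 6 groups and 18 in all. Seeds stood at 28 °C under 16 h of light and 8 h of dark, and each RNA extraction took 5 seeds. The tissue is labelled embryo, although the extraction text speaks of seeds. The allele, the age of the seed lots and whether replicates came from separate plants are not stated, so the p-values of the authors speak only of variation among these samples, part of which may be technical. CSA encodes an R2R3 MYB factor known for its part in sugar supply to the rice anther, and the comparison asked which transcripts of the germinating seed differ in its mutant.

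Only called genes were analysed, those with a false discovery rate (FDR) of at most 0.05 and an absolute log2 fold change of at least 1, and library totals are unknown. Library scaling factors recovered from the deposited fold changes lay between 0.919 and 1.11. The mutated gene, CSA (LOC_Os01g16810), was called only at 6 h, with raw counts of 92, 81 and 201 in csa, against 310, 305 and 380 in wild type. Csa replicate 2 was the highest csa library in 68.8% of the 746 entries higher in csa at 3 h, and csa replicate 3 in 58.6% of the 1395 at 6 h. The seed markers among the called entries at 3 h and 6 h were higher in csa, where 71.0% and 58.4% of all called entries were. At 3 h these were 7 embryo entries (oleosin and globulin 1) and 4 endosperm entries (glutelin and prolamin), and their summed scaled counts were 97727 to 187724 in csa against 39263 to 62979 in wild type for embryo, and 5120 to 6668 in csa against 2118 to 2589 in wild type for endosperm. Their median log2 fold changes of 1.13 and 1.25 stood beside 1.20 for all called entries and 1.41 for those higher in csa. Most of the embryo sum, here and at 6 h, came from the globulin 1 genes LOC_Os03g46100 and LOC_Os08g03410. At 3 h their scaled counts averaged 100245 and 28768 in csa, against 26746 and 8362 in wild type. At 6 h, 6 embryo entries summed to 74659 to 85665 in csa and 27013 to 39425 in wild type. The 2 endosperm entries summed to 320 to 516 in csa and 165 to 208 in wild type. The medians were 1.15 for embryo and 1.14 for endosperm, beside 1.11 for all called entries and 1.44 for those higher in csa. The 6 h embryo entries include EM1 and a steroleosin caught by the oleosin search term. The part of such markers in the results below was not tested. In seed RNA of this kind a change in the number of cells of a type and a change in RNA per cell cannot be told apart. One wild type sample at 12 h has a genotype field that names the mutant. The authors' 12 h calls include that sample, and below they serve only to say which genes were not called at 12 h and what share of tested genes was, while every count, fold change and ratio of the 4 genes comes from 3 h and 6 h.

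The 4 genes filled 6 entries of the tables, 3 at 3 h and 3 at 6 h, and all 6 were higher in csa, by 2.21-fold to 7.27-fold on means of scaled counts (raw counts divided by the library factors). At 3 h, 3 of the 4 were called higher, where 3.49% of 21397 tested genes were. At 6 h it was again 3 of 4, where 6.03% of 23117 tested genes were called higher. At 12 h none of the 4 was called by the authors, and 0.400% of 21242 tested genes were called in either direction. The choice of genes used these calls, so the counts carry no weight beside the background. In all 6 entries the csa libraries lay above the wild type libraries, which also held for 95.3% of the called higher entries at 3 h and 97.7% at 6 h. Catalase isozyme 2 was not called at 3 h, nor isocitrate lyase at 6 h, and their counts there were not analysed here.

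**Figure D1:**
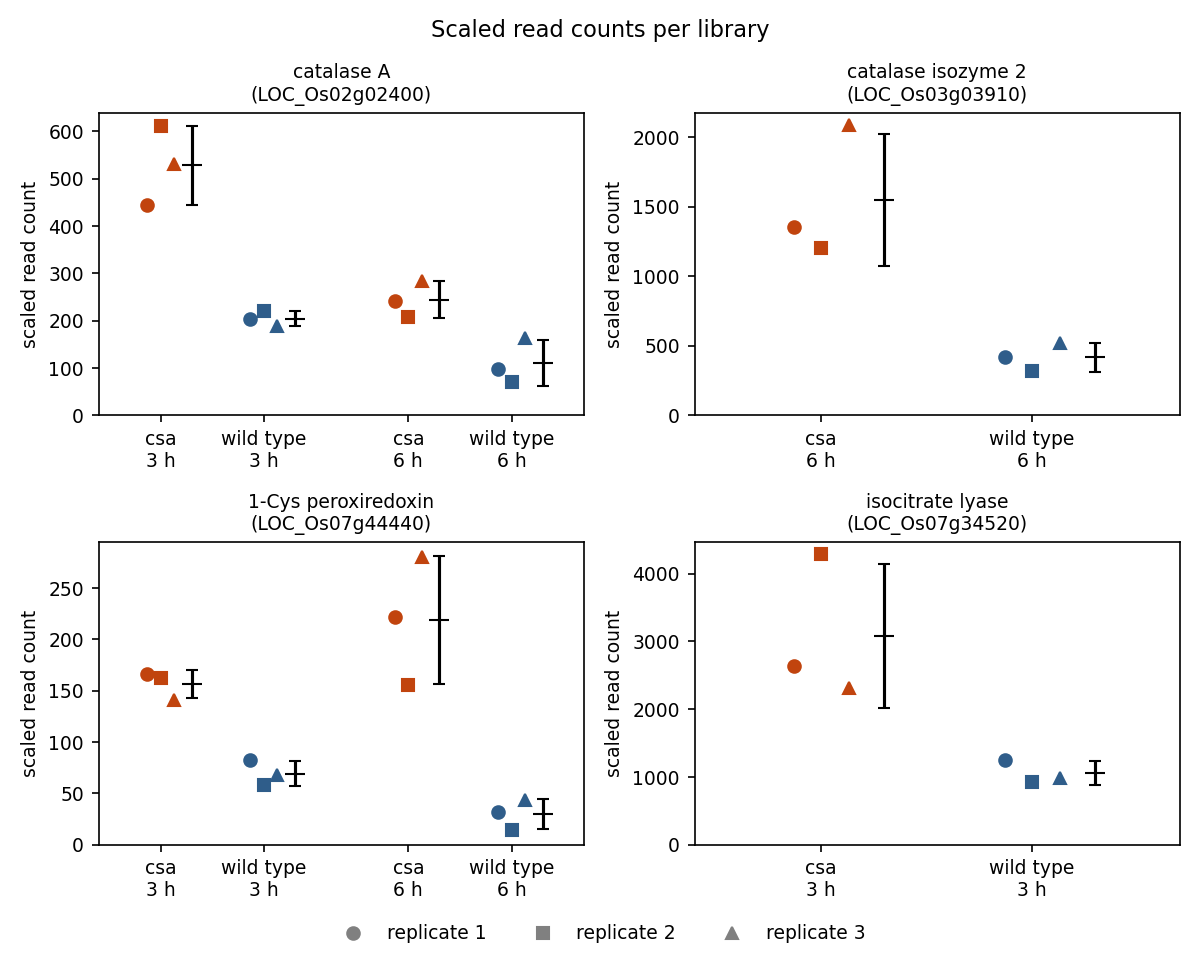
Scaled read counts (y axis, linear, from 0) of the 4 genes in each csa (orange) and wild type (blue) library at the times when the authors called them; symbols give the replicate and the bar beside them the mean ± SD (n = 3). Every csa library stands above every wild type library of the same time, and as a ratio of means the difference is largest for 1-Cys peroxiredoxin at 6 h, with 219 in csa against 30.1 in wild type, or 7.27-fold.

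Catalase A had raw counts of 441, 578 and 523 in csa at 3 h, against 206, 228 and 195 in wild type. The lowest csa library stood 2.02 times above the highest wild type library after scaling. Scaled counts averaged 528 ± 82.9 in csa and 204 ± 16.1 in wild type (SD, n = 3), which put the log2 fold change at 1.37 ± 0.15 (SE), and the FDR in the authors' deposited table was 1.71e-10. At 6 h its raw counts were 233, 197 and 297 in csa, against 97, 68 and 181 in wild type. The genotypes came closer together here, since the lowest csa library was only 1.26 times the highest wild type library, replicate 3. Scaled counts averaged 245 ± 38.9 in csa and 111 ± 47.7 in wild type (SD, n = 3), so the log2 fold change was 1.14 ± 0.38 (SE), and the authors' deposited table gave an FDR of 0.00217. The relative spread of the wild type libraries was 43.0% of their mean at 6 h and 7.9% at 3 h. The 6 h difference leaned on single libraries: without wild type replicate 2 it was 0.90, and without wild type replicate 3 it was 1.54 on the log2 scale. In an edgeR refit of the called genes, it met the authors' limits in 2 of the 6 fits that left out 1 library, and missed them without csa replicate 1 or 3 and without wild type replicate 1 or 2.

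Catalase isozyme 2, the other catalase of the set, appeared at 6 h. Its raw counts were 1304, 1145 and 2175 in csa, against 413, 303 and 574 in wild type. All csa libraries lay at least 2.32 times above the highest wild type library after scaling, and csa replicate 3 lay well above the other csa libraries. Scaled counts averaged 1549 ± 472 in csa and 418 ± 102 in wild type (SD, n = 3). The log2 fold change was 1.89 ± 0.32 (SE), with an FDR of 1.79e-10 in the authors' deposited table, and 1.62 without csa replicate 3. Counts of the 2 catalases cannot be set beside each other as levels, because the lengths of the counted transcripts are not known here, but their ratio within a library can be compared between libraries. There were 5.60, 5.81 and 7.32 reads of catalase isozyme 2 for each read of catalase A in csa, against 4.26, 4.46 and 3.17 in wild type. The ratio was therefore higher in every csa library than in any wild type library at 6 h, on the counts of genes chosen for their difference.

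1-Cys peroxiredoxin had raw counts of 165, 154 and 139 in csa at 3 h and 83, 60 and 70 in wild type. Scaled counts averaged 157 ± 13.7 in csa and 69.3 ± 12.3 in wild type (SD, n = 3), and the groups did not overlap. The log2 fold change was 1.18 ± 0.16 (SE) and the FDR in the authors' deposited table was 5.9e-05, while TMM factors computed from the called genes alone, which shift the median of all called genes by -1.24, turn the value to -0.044. The edgeR refit without wild type replicate 2 no longer met the authors' limits. Its fold change of 1.06 stayed above 1, but its p-value was above the largest p of the authors' list. At 6 h the raw counts were 213, 148 and 292 in csa, against 32, 14 and 48 in wild type. The wild type counts were low and uneven, with replicate 2 the lowest, and every csa library stood at least 3.58 times above the highest of them after scaling. Scaled counts averaged 219 ± 62.3 in csa and 30.1 ± 14.5 in wild type (SD, n = 3), which put the log2 fold change at 2.86 ± 0.47 (SE) with an FDR of 3.51e-12 in the authors' deposited table. Among the 1395 entries higher in csa at 6 h, this was the 75th by fold change, against the 559th of 746 at 3 h.

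Isocitrate lyase was called at 3 h. Its raw counts were 2613, 4066 and 2286 in csa, against 1262, 962 and 1027 in wild type. The groups did not overlap, and csa replicate 2, the highest csa library for most called higher entries at this time, was also the highest here. Scaled counts averaged 3082 ± 1061 in csa and 1058 ± 172 in wild type (SD, n = 3). The log2 fold change was 1.54 ± 0.32 (SE), with an FDR of 7.84e-10 in the authors' deposited table, and 1.23 without csa replicate 2. No entry at any time was annotated as malate synthase, the enzyme that follows isocitrate lyase in the glyoxylate cycle, or as phosphoenolpyruvate carboxykinase, which leads from the cycle towards sugar.

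**Figure D2:**
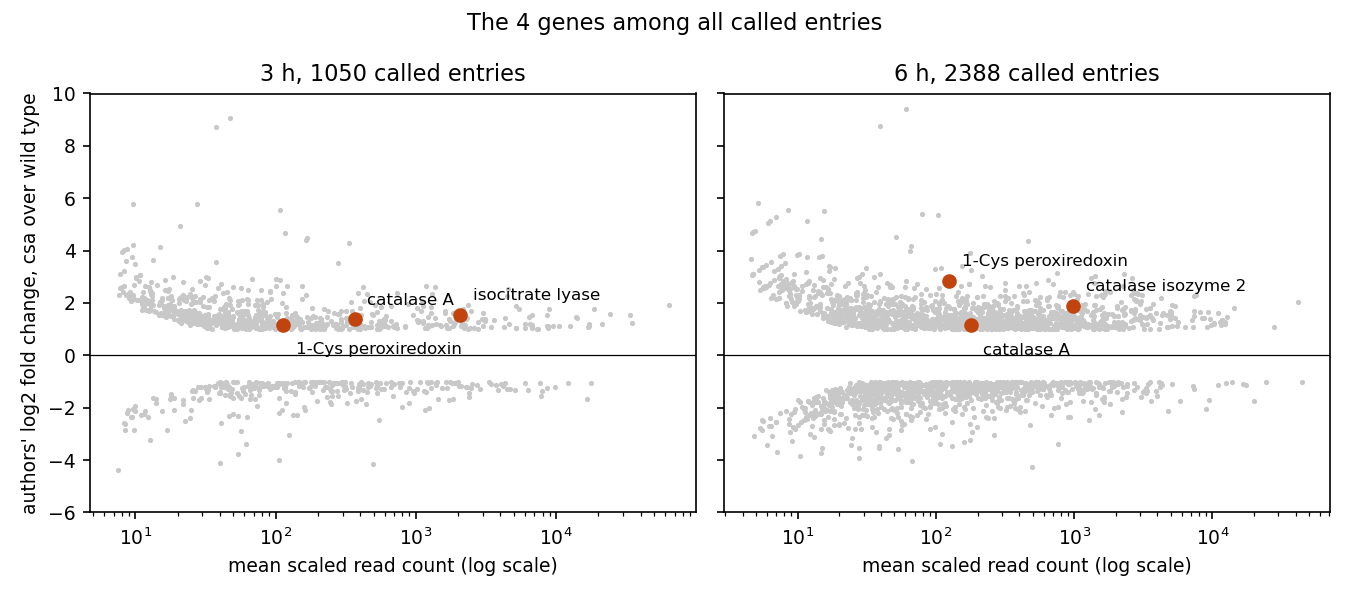
The authors' deposited log2 fold change, csa over wild type (y axis), against the mean scaled read count over 6 libraries (x axis, log scale) for all called entries at 3 h and 6 h, with the 4 genes in orange. Genes between -1 and 1 were not called and leave the empty band; 1-Cys peroxiredoxin is 559th of 746 higher entries by fold change at 3 h and 75th of 1395 at 6 h.

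Catalase A and 1-Cys peroxiredoxin were called at both 3 h and 6 h, so their differences between the genotypes could be compared between these times. For 1-Cys peroxiredoxin the log2 fold change at 6 h was larger than at 3 h by 1.69 ± 0.50 (SE), and for catalase A it was smaller, at -0.23 ± 0.41. The same difference had a median of 0.30 over the other 230 genes called higher at both times, with quartiles of -0.10 and 0.79. These differences use the calls that chose the genes and were not tested.

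The ratio of the 2 genes within a library is free of library scaling. Catalase A had 2.67, 3.75 and 3.76 reads for each read of 1-Cys peroxiredoxin in csa at 3 h, against 2.48, 3.80 and 2.79 in wild type. The genotypes overlapped at this time. At 6 h the ratio was 1.09, 1.33 and 1.02 in csa, against 3.03, 4.86 and 3.77 in wild type, with every csa library below every wild type library. On the log2 scale the csa ratio minus the wild type ratio was 0.17 ± 0.25 at 3 h and -1.74 ± 0.23 at 6 h (SE). Within csa the 6 h ratio differed from the 3 h ratio by -1.56 ± 0.20, and within wild type by 0.36 ± 0.27. These ratios restate the counts behind the fold changes of 2 genes chosen for their difference, and were not tested. In wild type at 6 h they rest on 1-Cys peroxiredoxin raw counts of only 32, 14 and 48.

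**Figure D3:**
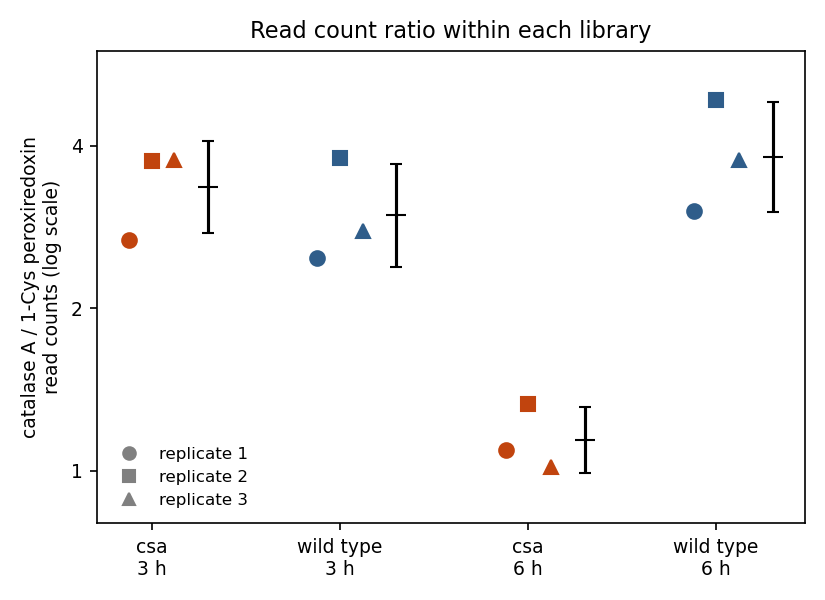
Reads of catalase A for each read of 1-Cys peroxiredoxin (y axis, log scale) in each csa (orange) and wild type (blue) library at 3 h and 6 h; symbols give the replicate and the bar the mean ± SD on the log2 scale (n = 3). The csa libraries at 6 h, between 1.02 and 1.33, lie below all the others, which range between 2.48 and 4.86. Both genes were chosen for their difference between the genotypes, so this is a description.

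Scaled counts at 6 h were also set over those at 3 h within each genotype, although the 2 tables were scaled separately. In csa this log2 ratio was 0.48 ± 0.25 for 1-Cys peroxiredoxin and -1.11 ± 0.19 for catalase A, where the median of the other 230 shared higher genes was -0.85. In wild type it was -1.20 ± 0.43 for 1-Cys peroxiredoxin and -0.88 ± 0.36 for catalase A, where the median of those genes was -1.09 (SE, n = 3 per time). On these separate scalings both genes had fewer counts at 6 h than at 3 h in wild type. In csa catalase A had fewer and 1-Cys peroxiredoxin more. The ratio of depth between the 2 times is unknown and is part of these values, so they do not give changes in level over time.

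The libraries ranked alike for the 3 genes called at 6 h. For catalase A, catalase isozyme 2 and 1-Cys peroxiredoxin, scaled counts were lowest in replicate 2, intermediate in replicate 1 and highest in replicate 3, in csa and in wild type. Of the 1395 entries higher in csa at 6 h, 91, or 6.52%, had this order in both genotypes, the 3 genes included. The order was picked after the values of the 3 genes were seen, so these counts are a description. Of the other 5 hydrogen peroxide genes called at 6 h, 2 had it in csa and 0 in both genotypes.

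Other genes that remove hydrogen peroxide or recycle its reductants were collected by annotation terms: catalases, peroxiredoxins, ascorbate and glutathione peroxidases, superoxide dismutases, which produce hydrogen peroxide, and the reductases of ascorbate and glutathione. At 3 h, 4 entries of this list were called, all higher in csa, with a median log2 fold change of 1.29. Among all 1050 called entries 71.0% were higher and the median was 1.20, while the 746 higher entries alone had a median of 1.41. The 4 entries include catalase A and 1-Cys peroxiredoxin, which were chosen with their calls known. The other 2 alone also had a median of 1.29. They were a dehydroascorbate reductase gene (LOC_Os05g02530), whose product restores ascorbate, and a peroxiredoxin Q gene (LOC_Os06g09610). The dehydroascorbate reductase gene had raw counts of 599, 1000 and 799 in csa, against 359, 341 and 314 in wild type, a log2 fold change of 1.32 ± 0.24. Peroxiredoxin Q had 39, 62 and 52 in csa, against 16, 21 and 31 in wild type, at 1.25 ± 0.34 (SE).

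At 6 h the list had 8 called entries, all higher in csa, with a median of 1.37. Of all 2388 called entries 58.4% were higher and the median was 1.11, while the 1395 higher entries alone had a median of 1.44. The 8 include 3 of the 4 chosen genes, and the other 5 had a median of 1.29. Among the 8, 1-Cys peroxiredoxin and catalase isozyme 2 had the largest fold changes. A copper-zinc superoxide dismutase gene (LOC_Os07g46990), whose product turns superoxide into hydrogen peroxide, had 1676, 2564 and 2462 raw counts in csa, against 1190, 918 and 1037 in wild type, a log2 fold change of 1.13 ± 0.21. The glutathione reductase genes LOC_Os10g28000, annotated as chloroplastic, and LOC_Os03g06740 stood at 1.29 ± 0.42 and 1.13 ± 0.32, and a thylakoid ascorbate peroxidase gene (LOC_Os02g34810) at 1.44 ± 0.22. A peroxisome-type ascorbate peroxidase gene (LOC_Os04g14680) had 400, 356 and 107 raw counts in csa, against 125, 93 and 52 in wild type, at 1.72 ± 0.60 (SE). Its groups overlapped, and csa replicate 3, the highest csa library for the 3 genes of the set, was the lowest for it. In the edgeR refit without wild type replicate 2, 2 of the 4 entries at 3 h and 4 of the 8 at 6 h met the authors' limits. The share kept over all called higher entries was not counted, so these losses cannot be read as particular to the list. Wild type replicate 2 was the lowest wild type library in 25.6% of all 746 higher entries at 3 h and 50.9% of all 1395 at 6 h.

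Entries with glyoxylate cycle, beta-oxidation, lipase or peroxisome annotations were collected to stand beside isocitrate lyase. Apart from isocitrate lyase, no called entry matched the terms searched for enzymes of the glyoxylate cycle or of beta-oxidation. For beta-oxidation the terms were acyl-CoA oxidase, enoyl-CoA, ketoacyl-CoA thiolase and long-chain acyl-CoA synthetase, with spelling variants. Enzymes annotated under other names were not searched for. At 3 h, 3 were called, with a median log2 fold change of 1.16 beside 1.20 for all called entries, of which 71.0% were higher. Of the 3, isocitrate lyase and a PEX11 family gene (LOC_Os04g45210), which belongs to a family of peroxisome division factors, were higher in csa, and a triacylglycerol lipase gene (LOC_Os07g39810) was lower, a direction in which 1.42% of tested genes were called at this time. The lipase had raw counts of 163, 110 and 288 in csa, against 785, 653 and 680 in wild type, a log2 fold change of -1.85 ± 0.41. The PEX11 family gene had 68, 80 and 36 in csa, against 34, 41 and 12 in wild type, so its groups overlapped, at 1.16 ± 0.54 (SE), and neither the edgeR nor the DESeq2 refit kept its call, nor did the edgeR fits without csa replicate 1 or 2 or without wild type replicate 1 or 3. At 6 h, 3 entries were called and all were higher in csa, where 58.4% of all called entries were higher. The median of the 3 was 1.10, beside 1.11 for all called entries and 1.44 for those higher in csa. The 3 were another PEX11 family gene (LOC_Os03g02590, 1.09 ± 0.13), a peroxisomal ABC transporter gene (LOC_Os01g73530, 1.05 ± 0.27) and the peroxisome-type ascorbate peroxidase gene already given. At 12 h neither list had a called entry. Members of the lists that were not called were not analysed here.

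**Figure D4:**
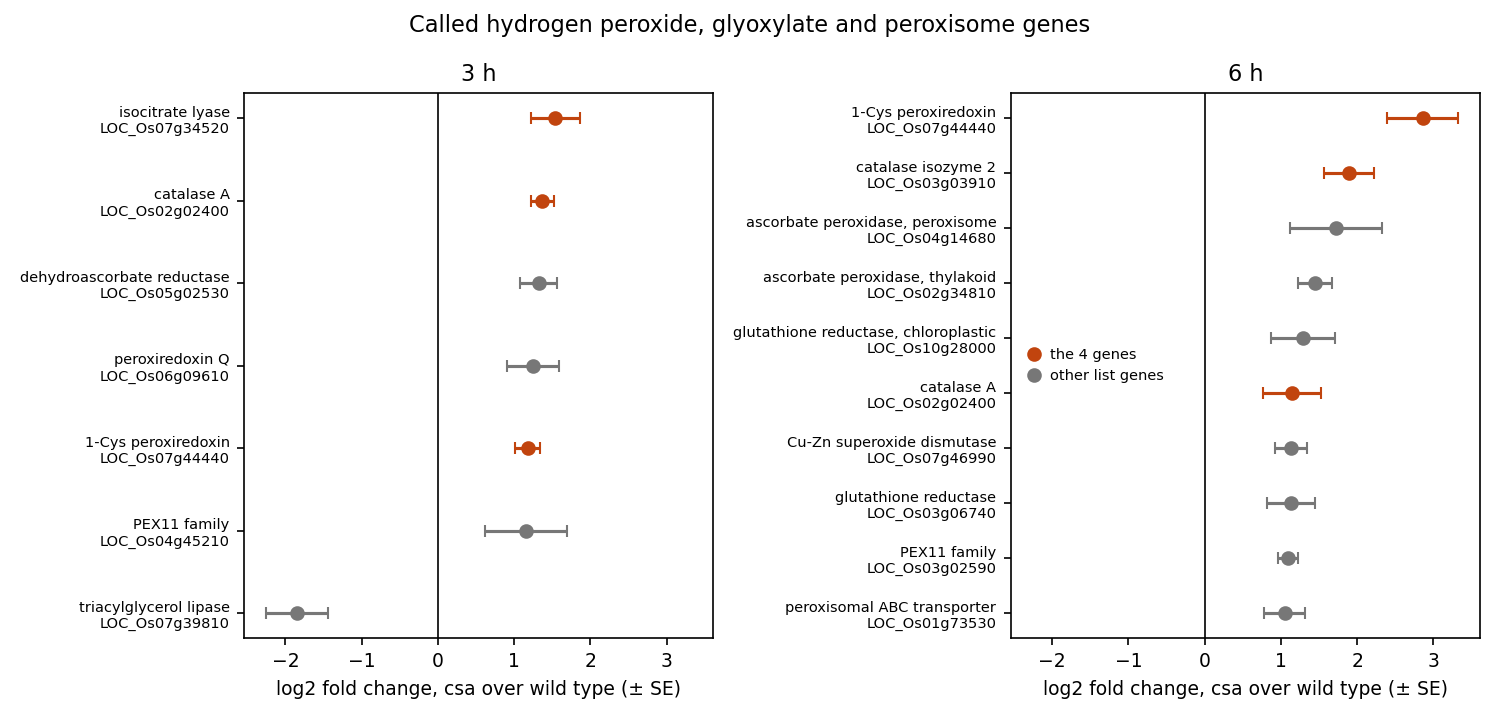
Log2 fold change, csa over wild type, with its SE (x axis, n = 3 per group) for every called entry of the hydrogen peroxide list and of the glyoxylate, fatty acid and peroxisome list at 3 h and 6 h; the 4 genes are orange and the others grey. At 3 h the triacylglycerol lipase gene, at -1.85, is the one entry left of 0, and 1-Cys peroxiredoxin stands at 1.18. TMM factors of the called genes alone, not drawn here, shift the median called entry at 3 h by -1.24. With them 1-Cys peroxiredoxin is at -0.044, catalase A at 0.13 and isocitrate lyase at 0.27. At 6 h 1-Cys peroxiredoxin stands farthest right at 2.86.

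Likeness of pattern was measured by Pearson's r of log2(scaled count + 1), centred within each time, over the libraries of the times when a gene was called. The points share the difference between the genotypes, so r was high for most genes higher in csa. Catalase A, over 12 libraries and 324 genes, was most like the genes for a tonoplast intrinsic protein similar to maize TIP3-2 (LOC_Os04g44570, r = 0.983), a hypothetical gene (LOC_Os01g05585, 0.957) and an alpha/beta hydrolase (LOC_Os05g46460, 0.955), against a median r of 0.845 for shared genes higher in csa at 3 h. The TIP3-2-like gene had log2 fold changes of 1.42 at 3 h and 1.16 at 6 h in the authors' deposited table. For 1-Cys peroxiredoxin the nearest were a glycoside hydrolase family 17 gene (LOC_Os03g51240, r = 0.981) and 2 genes without annotation text (LOC_Os03g61980 and LOC_Os09g09690, 0.949 each), against a median of 0.831. The glycoside hydrolase gene, like 1-Cys peroxiredoxin, had a larger fold change at 6 h, at 2.12 against 1.00 at 3 h. Because r holds the genotype difference at each time, genes picked by r tend to have such alike fold changes. The values of this gene and of the TIP3-2-like gene therefore add nothing to r. Catalase A and 1-Cys peroxiredoxin had r = 0.88 with each other.

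Over the 6 libraries at 6 h, catalase isozyme 2 was most like a hypothetical protein gene (LOC_Os08g40919) and a thioredoxin M5 gene (LOC_Os12g08730), with r = 0.999 each, and a gene without annotation text (LOC_Os07g13180, 0.998), where the median was 0.913. Its r was 0.988 with 1-Cys peroxiredoxin and 0.95 with catalase A. Over the 6 libraries at 3 h, isocitrate lyase was most like LOC_Os04g33920 (r = 0.999), a B3 family transcription factor gene (LOC_Os03g42230, 0.995) and LOC_Os06g05440 (0.994), where the median was 0.917. With 6 libraries in 2 groups such values are descriptions only.

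Calls were also counted among the neighbours of the genes. Of the 10 protein-coding RefSeq genes on each side of catalase A, 0 were listed at 3 h and 1 at 6 h. Around catalase isozyme 2 it was 1 at 3 h and 0 at 6 h, around 1-Cys peroxiredoxin 1 at each time, and around isocitrate lyase 2 at 3 h and 4 at 6 h, where 4.91% and 10.3% of all tested genes were called. These percentages are of tested genes, while the neighbours were counted whether tested or not. Called entries without a RefSeq match could not be counted as neighbours. The listed neighbour of 1-Cys peroxiredoxin, 2 genes away, was the same at both times, a gene for a TolB-like beta-propeller protein (LOC_Os07g44410). It had 2153, 1832 and 3776 raw counts in csa at 6 h and 698, 485 and 402 in wild type, and its log2 fold changes in the authors' deposited table were 1.45 at 3 h and 2.30 at 6 h. At 2 genes from isocitrate lyase, a thiazole biosynthesis gene (LOC_Os07g34570) was called higher at both times, at 1.08 and 2.26. The gene next to isocitrate lyase (LOC_Os07g34510) was called lower in csa at 3 h, at -1.32. At 6 h, LOC_Os07g34260 near isocitrate lyase and LOC_Os02g02450 near catalase A were lower, at -2.25 and -1.84. The other listed neighbours of the 4 genes were higher in csa. The neighbours named here were singled out after their values were seen. Catalase and peroxiredoxin genes belong to small families, and the sources used here do not say to which copy a read matching several was assigned. Catalase B (LOC_Os06g51150) and a neighbouring copy of 1-Cys peroxiredoxin (LOC_Os07g44430) were not called at any time, and their counts were not analysed here.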

How the data were processed

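RNA sequencing of 18 samples gave 3 deposited tables, 1 per time, each holding the authors' called genes. Per the file headers, they carry raw read counts per library, the authors' log2 fold change (csa over wild type), p-value and FDR, and annotation text. The submitters' processing notes name DESeq2 with no version; the sources used here give neither aligner, counting tool, strand setting nor genome build. Columns were matched to samples by title, which put the 12 h wild type sample with a conflicting genotype field in the wild type; 0 columns were unmatched, and no replicate pair agreed within sampling noise (smallest chi-square per degree of freedom 6.54 over 18 pairs).

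Scaling factors were solved for, by least squares, so that mean scaled counts returned the fold changes of the tables (residual SD 0.00075 and 0.00207 log2 units at 3 h and 6 h, over entries with at least 50 counts per genotype), and the number of tested genes came from the ranks implied by p and FDR. At 12 h that number rests on 63.6% of ranks coming out whole, within 0.1. Depth is unknown, so precision is given by the replicate spread. SEs follow from the SDs of scaled counts. The 4 genes, lists and rules were chosen with earlier results of these data known. Named genes are the 4, every called member of the 2 lists (up to 6 per list, time and direction; at 6 h the thylakoid ascorbate peroxidase gene is named outside this rule) and the 3 genes most like each. RefSeq served for names, chromosomes and gene order; 78.7% of entries matched at 3 h and 79.2% at 6 h. No sequences were used. Refits used edgeR 4.0.16 (quasi-likelihood) and DESeq2 1.42.0 in R 4.3.3 on the called genes with the recovered factors, after a check on simulated counts. A refit kept a call when p was at most the largest p of the authors' list (0.00694 at 3 h, 0.0117 at 6 h), the fold change was at least 1 on the log2 scale in size and the direction matched.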

Additional observations from a re-analysis of the deposited data

How the results depend on the processing

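Most of the 78 recalculated fold changes of the 4 genes reused the recovered factors and all or most libraries. They could therefore move little. Of the 78, 67 moved by less than 1 replicate SD. The other 11 all came from factors computed from the called genes alone, which by construction centre on genes that are mostly higher in csa: the median of called genes shifts by -1.04 (DESeq2) and -1.24 (TMM) at 3 h and by -0.74 and -0.59 at 6 h, and at 3 h the share of higher entries is 66.0% and 46.4% instead of 71.0%. At 3 h catalase A became 0.33 (DESeq2) and 0.13 (TMM), isocitrate lyase 0.47 and 0.27, and 1-Cys peroxiredoxin 0.155 and, reversed, -0.044. At 6 h catalase A became 0.40 and 0.56, catalase isozyme 2 1.14 and 1.31, and 1-Cys peroxiredoxin 2.13 with DESeq2 factors. Correlations between the genotypes do not settle whether the replicate numbers pair the samples. Same-number correlations were -0.045 to 0.24 at 3 h and -0.21 to 0.29 at 6 h. At 3 h replicates 2 and 3 correlated best with their own number and replicate 1 did not, and at 6 h none did. With the replicate block the edgeR values at 3 h were 1.36, 1.498 and 1.18 for catalase A, isocitrate lyase and 1-Cys peroxiredoxin. At 6 h they were 1.21, 1.88 and 2.92 for catalase A, catalase isozyme 2 and 1-Cys peroxiredoxin. Leaving out single libraries gave catalase A 1.25 to 1.48 at 3 h and 0.90 to 1.54 at 6 h, 1-Cys peroxiredoxin 1.06 to 1.32 and 2.53 to 3.22, isocitrate lyase 1.23 to 1.71 and catalase isozyme 2 1.62 to 2.08.

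At an absolute log2 fold change of 1.5, the hydrogen peroxide list held 0 entries at 3 h and 3 at 6 h. The glyoxylate, fatty acid and peroxisome list (glyoxylate list below) held 1 higher entry at each time. This entry was isocitrate lyase at 3 h and the peroxisome-type ascorbate peroxidase gene at 6 h. The 2 higher glyoxylate entries at 3 h became 1 at an FDR of 0.01 and 1 in the edgeR and DESeq2 refits. With single libraries left out, the refit kept 2 to 4 hydrogen peroxide entries at 3 h and 4 to 8 at 6 h, 1 to 2 higher and 1 to 1 lower glyoxylate entries at 3 h, and 2 to 3 at 6 h. The share of all called entries kept by these fits was not counted.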
